A study of Homo sapiens with 21 samples.

Results

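CDK6 is one of the paired cyclin D-dependent kinases, and its knockdown in irradiated, senescent IMR90 fibroblasts is described here against cells that received non-targeting siRNA. IMR90 is an established line of human lung fibroblasts. The comparison takes the 3 libraries transfected with siRNA against CDK6 (siCDK6) and 6 control libraries, 3 with the non-targeting siRNA NT3 (siNT3) and 3 with the non-targeting siRNA NT4 (siNT4), which makes 9 of the 21 libraries in the series. Each control siRNA had equal weight, and each was also used alone. All 9 libraries came from wild-type cells that were irradiated, received siRNA (5 nM) on day 4 and again on day 7, and were harvested on day 10, and poly(A) RNA was sequenced. The other 12 libraries, in 4 groups of 3, came from cells irradiated and transfected in the same way with siRNA against CDK4 (siCDK4), CCND1 (siCCND1) or CDK4 and CDK6 together (siCDK4_CDK6), and from proliferating cells that were neither irradiated nor transfected. Those 2 treatments cannot be told apart against proliferating cells. For each target the labels name a single siRNA reagent without its sequence, so an effect of the reagent outside CDK6 cannot be told apart from an effect on CDK6. The labels also do not say that the libraries of a group came from separate cultures, so the p-values measure only the spread between these libraries, which may be technical.

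CDK4 and CDK6 bind D-type cyclins and phosphorylate the RB protein, which releases E2F transcription factors that switch on the genes of DNA replication. In senescent cells the CDK inhibitors p16 (CDKN2A) and p21 (CDKN1A) are high and the cycle is stopped, yet the D cyclins and their kinases are still present. Senescent fibroblasts are also known for a secretory phenotype (SASP) of chemokines, interleukins and proteases that depends on NF-kB and AP-1 factors, and for a late interferon response.

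Depth ranged from 12892442 to 21822152 reads per library over the genes in the table. All values below are reads divided by 1 size factor per library. A log2 difference is taken on log2(value + 1) as siCDK6 minus controls, ± its standard error. It understates the change of genes with low values. "Rose" and "fell" mark genes whose limma p, adjusted over 11372 tested genes, was below 0.05. The third siNT3 library (siNT3 replicate 3) stood apart. Its log2 values deviated from its group mean with an SD of 0.327, against 0.173 to 0.225 in the other 8 libraries. Its median difference from the other siNT3 libraries ran from 0.32 in the quartile of shortest transcripts to -0.35 in the quartile of longest ones, while those of siNT3 replicate 1 and 2, each set against a pair that holds this library, ran the other way, from -0.12 to 0.13 and from -0.20 to 0.22. The siNT4 and siCDK6 libraries stayed within -0.064 to 0.070. Over the same quartiles the median difference of siCDK6 from the controls ran from -0.108 for the shortest to 0.096 for the longest transcripts, and from -0.060 to 0.041 without that library. Without it, all 210 named genes past the threshold stayed past it in the same direction, as did 3616 of all 3618 genes past it. Fibroblast markers were present in all 9 libraries, with a summed value of 573962 to 626598 with siCDK6 and 496484 to 621898 in controls. Leukocyte markers summed to 1069 to 1147 against 909 to 1467, with 6 of 10 under a value of 10 in all 9 libraries. Epithelial markers summed to 539 to 651 against 345 to 431, most of it KRT19 (563, 459 and 517 with siCDK6 against 259.5, 227 and 280.3 with siNT3 and 249, 278 and 278 with siNT4), which rose by 0.97 ± 0.10 (limma adjusted p = 5.1e-05), while 8 of 12 stayed under 10. Of 4 tested epithelial markers 1 rose and 2 fell. CLDN4 (8.39 to 24.0 with siCDK6 against 27.0 to 52.3) and CLDN7 (28.5 to 28.9 against 40.1 to 69.2) lay below all controls. Endothelial markers summed to 4165 to 4570.4 against 2110.1 to 3817, most of it the receptor TEK. Of 6 tested endothelial markers 1 rose and 1 fell, with a median of -0.41. The part of these markers in any result was not tested. In bulk RNA, fewer cells that express a gene and less of its RNA per cell cannot be told apart.

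CDK6 knockdown changed about as many genes upwards as downwards, but the large changes were mostly falls. Of 11372 tested genes, 3618 passed the threshold (31.8%), 1815 higher (16.0%) and 1803 lower (15.9%). Beyond 1 log2 unit, 443 genes were called (3.90%), 114 higher and 329 lower. In 3295 genes (29.0%) the siCDK6 libraries did not overlap the 6 controls, and they lay above them in 1668 (14.7%) and below them in 1627 (14.3%). The genes that passed against the mean of the controls and against each control alone in the same direction numbered 1677 (14.7%), 754 higher (6.63%) and 923 lower (8.12%). With siNT3 replicate 3 left out, 5312 genes passed, 2673 higher and 2639 lower, and with siCDK6 replicate 3 left out 2307 passed, 1147 higher and 1160 lower. Without siCDK6 replicate 1, 1192 genes were higher. The median log2 difference over all tested genes was -0.01, so a gene list is read below against that value and against 16.0% rising and 15.9% falling. The lowest list medians were those of chemokines, interferon-stimulated genes, and G2 and mitosis genes, and the highest was that of contractile genes, as the plot of list members shows.

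**Figure D1:**
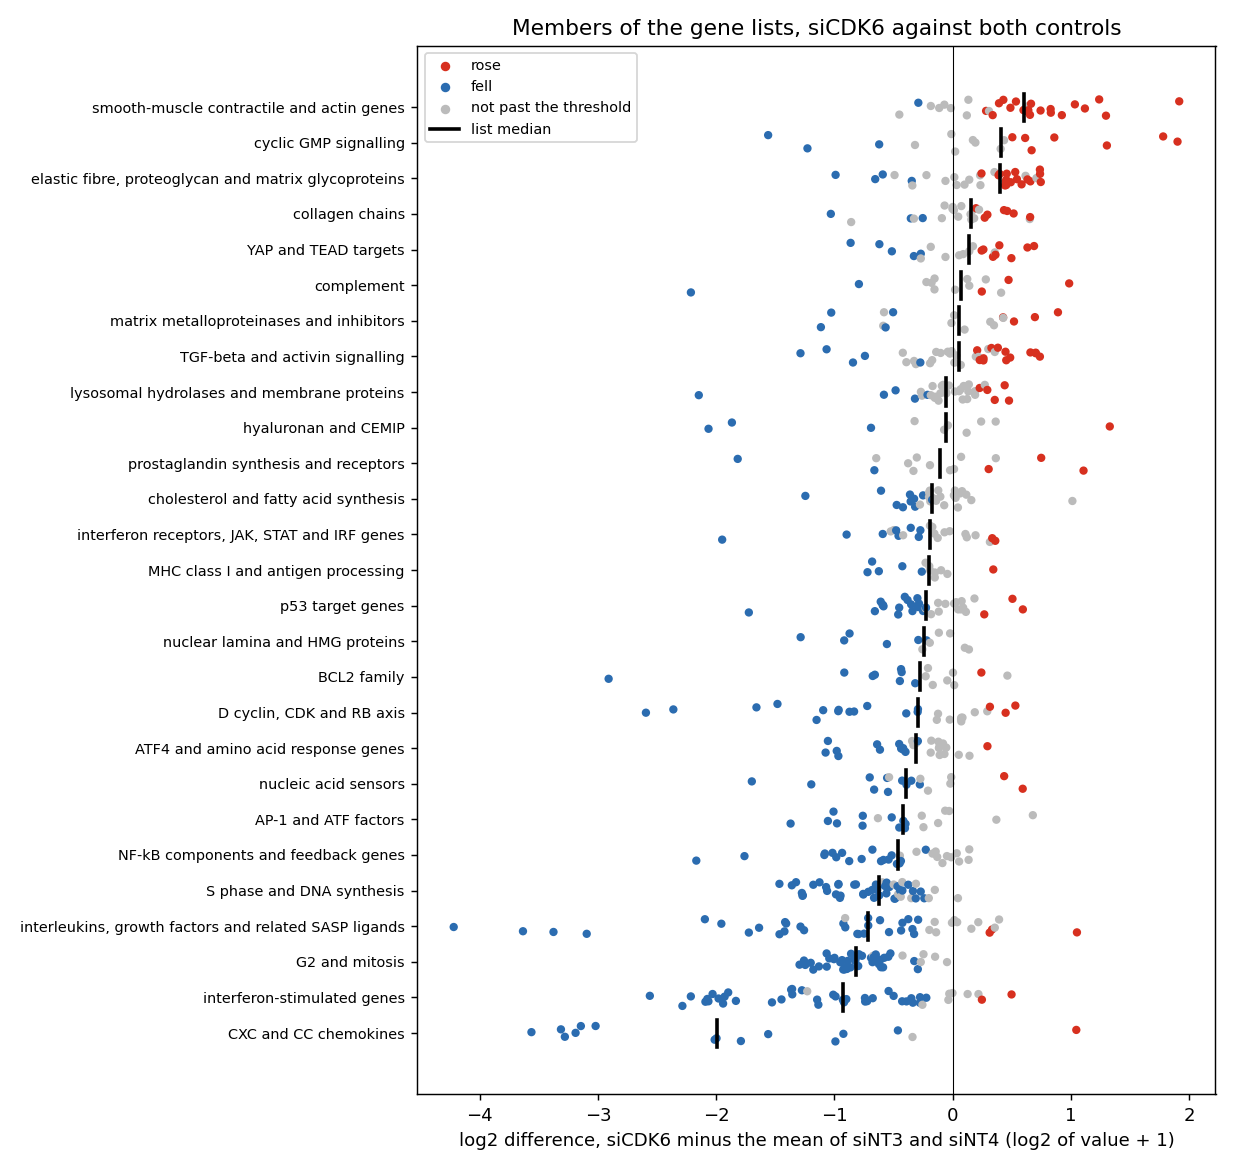
Log2 difference (siCDK6 minus the mean of siNT3 and siNT4, horizontal axis) of every tested member of 27 gene lists, with 1 point per gene and a black bar at the list median. Chemokines had the lowest median (-1.998) and contractile genes the highest (0.61).

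CDK6 itself was strongly reduced, as a check of the labels. Its values were 834, 727 and 759.7 with siCDK6, 5372, 5689 and 4147 with siNT3 and 4458, 4230.4 and 4339 with siNT4. All siCDK6 libraries lay below all 6 controls, at 16.4% of the control mean (log2 difference -2.59 ± 0.09), and the exact two-sided permutation test over 84 splits gave p = 0.0119, the smallest p it allows. The related kinase CDK4, which was not targeted here, was at 1015, 946 and 889 with siCDK6 against 1158, 1166 and 1334 with siNT3 and 1356, 1249.6 and 1223 with siNT4 and fell by less (log2 difference -0.39 ± 0.07, limma adjusted p = 0.0023). D-type cyclins, the partners of CDK6, did not fall. CCND2 rose by 0.45 ± 0.06 (limma adjusted p = 0.00035). CCND1 had 54505, 57146 and 54413 with siCDK6, 33969, 36692 and 25615 with siNT3 and 44546, 48813 and 45546 with siNT4, and CCND3 2563, 2679.8 and 2722 with siCDK6 against 1917, 1814 and 2235 with siNT3 and 2257, 2326 and 2305 with siNT4. CCND1 (log2 difference 0.53 ± 0.10) and CCND3 (0.32 ± 0.07) passed the threshold upwards against both controls together but not against siNT4 alone.

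Other cell cycle kinases and their inhibitors fell as well. In the list of the D cyclin, CDK and RB axis 14 of 26 tested genes, the target CDK6 among them, fell and 3, the D cyclins, rose. CDK2, the kinase of cyclin E, had 497, 475 and 482 with siCDK6, 1161, 1199 and 1147 with siNT3 and 955, 907 and 896 with siNT4 (log2 difference -1.10 ± 0.06, limma adjusted p = 9.8e-07), with no overlap between groups. Both INK4 inhibitors at the CDKN2 locus fell. CDKN2B, which encodes p15, had 134, 157 and 163 with siCDK6 against 467, 513 and 467 with siNT3 and 475, 475 and 475 with siNT4 (log2 difference -1.66 ± 0.08, limma adjusted p = 9.8e-07). CDKN2A, which encodes p16 and ARF, had 96.7, 111.8 and 86.2 with siCDK6, 209, 212 and 252 with siNT3 and 228, 226 and 188 with siNT4 (-1.15 ± 0.12, limma adjusted p = 5.9e-05). These paralogs are similar in sequence, and the handling of reads that match both is not given in the sources used here, so their separate values are uncertain. CDKN1A, which encodes p21, remained abundant at 23532, 24235 and 24042 with siCDK6 against 28356, 29069.7 and 30843 with siNT3 and 28151, 29924 and 29757 with siNT4 and fell by a small amount (log2 difference -0.29 ± 0.06, limma adjusted p = 0.0039).

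Among E2F factors and cyclin E, E2F1 had 107.9, 82.9 and 92.9 with siCDK6, 176, 167 and 177 with siNT3 and 189, 200.5 and 199 with siNT4 (log2 difference -0.96 ± 0.10, limma adjusted p = 7.4e-05). CCNE2 had 36.6, 25.2 and 30.7 with siCDK6 against 114.2, 81.6 and 81.3 with siNT3 and 71.2, 101.2 and 78.9 with siNT4 (-1.48 ± 0.18, limma adjusted p = 0.00017), and CCNE1 fell by 0.72 ± 0.11 on the log2 scale (SE 0.11). E2F2 was at 2.04, 1.86 and 0.958 with siCDK6, 18.7, 12.8 and 21.8 with siNT3 and 4.45, 11.7 and 11.5 with siNT4, a level of few reads, and also fell. CDKN2C (-0.97 ± 0.18), E2F5 (-0.87 ± 0.16), CDK1 (-0.83 ± 0.15) and E2F4 (-0.30 ± 0.06) fell too. The pocket proteins RB1 (0.07 ± 0.10), RBL1 (-0.13 ± 0.15) and RBL2 (0.29 ± 0.14) did not pass the threshold, nor did E2F3, E2F6, TFDP1, TFDP2, CDKN1B or CDKN2D, whose differences lay between -0.12 ± 0.09 and 0.19 ± 0.12.

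**Figure D2:**
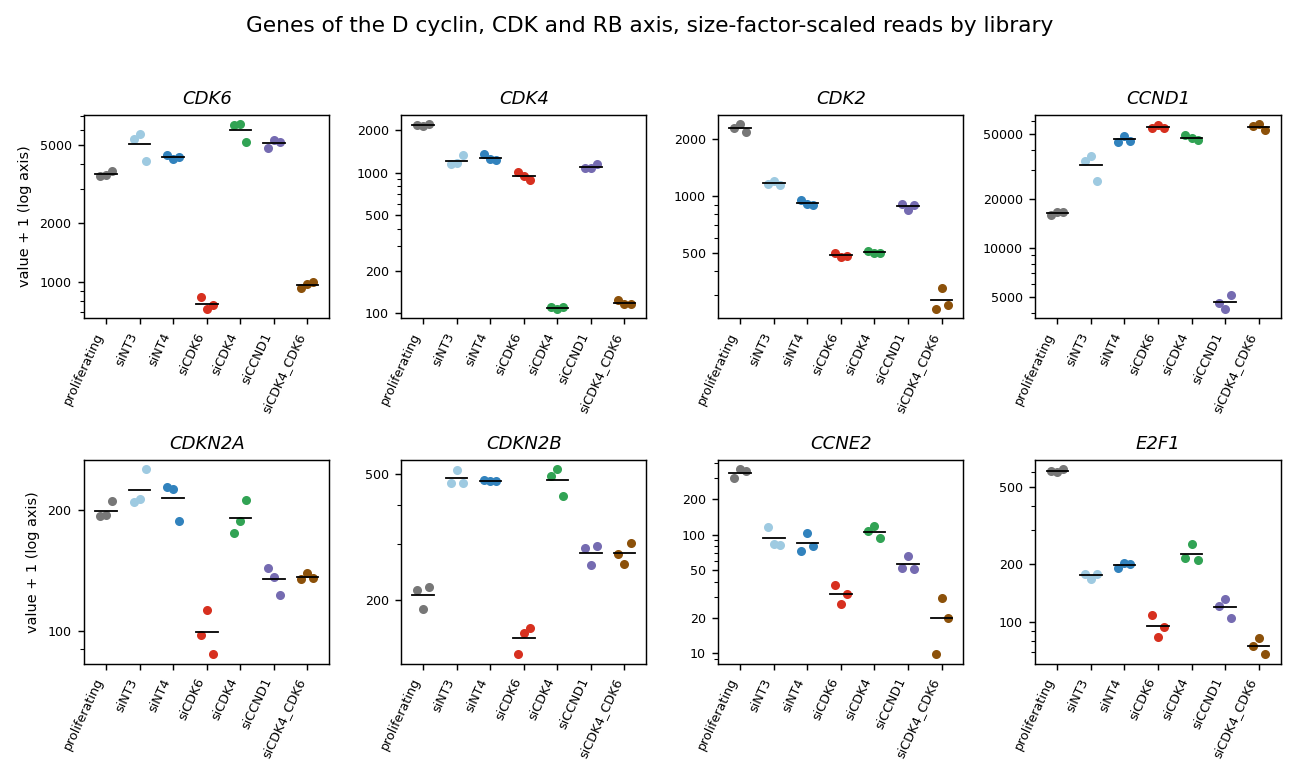
Values plus 1 (reads divided by the size factor, log axis) of 8 genes of the D cyclin, CDK and RB axis in all 7 groups, with 1 point per library and a bar at the group mean. CDK6 was low in the siCDK6 and siCDK4_CDK6 libraries, and CDKN2B was lowest with siCDK6.

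The genes of DNA replication fell with siCDK6. Of 50 tested S phase genes, 40 fell and 0 rose, with a median of -0.62. The falls numbered 31 without siCDK6 replicate 2 and 29 without siCDK6 replicate 3. Against both controls taken singly and together 26 of the 50 fell. RRM2, a subunit of the ribonucleotide reductase that makes deoxynucleotides, was the most abundant of the 6 that fell most, at 541, 390.4 and 556 with siCDK6 against 1449, 1176 and 1451 with siNT3 and 1079.5, 1143 and 1126 with siNT4 (log2 difference -1.32 ± 0.12, limma adjusted p = 2.2e-05). The helicase subunit MCM2 had 119, 103.4 and 139.9 with siCDK6, 309, 309 and 275 with siNT3 and 290.5, 299.7 and 268 with siNT4 (-1.28 ± 0.11, limma adjusted p = 1.6e-05). CDT1, which loads the helicase onto origins, had 55.98, 48.5 and 54.6 with siCDK6 against 117, 119.9 and 169.9 with siNT3 and 102.4, 157 and 120.2 with siNT4 (-1.27 ± 0.17, limma adjusted p = 0.00024). In these 3 genes every siCDK6 library lay below every control. MCM10 (-1.47 ± 0.19), CDC45 (-1.36 ± 0.21) and CLSPN (-1.27 ± 0.14), which act at origins and forks, fell by similar amounts. The 10 that did not pass ranged from -0.59 ± 0.21 for the helicase gene BLM to 0.04 ± 0.10 for the polymerase gene POLE.

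Genes of G2 and mitosis fell together. Of 49 tested members 43 fell and 0 rose (median -0.82). UBE2C, the ubiquitin-conjugating enzyme of the anaphase-promoting complex, had 67.2, 44.7 and 65.1 with siCDK6, 162, 113.5 and 197 with siNT3 and 142, 133 and 129.8 with siNT4 (log2 difference -1.30 ± 0.18, limma adjusted p = 0.00039). The condensin subunit NCAPG had 132, 78.3 and 115.9 with siCDK6 against 300.01, 262 and 258 with siNT3 and 211, 229.7 and 283 with siNT4 (-1.26 ± 0.16, limma adjusted p = 0.0002). AURKB, the kinase of the chromosomal passenger complex, had 39.7, 28.9 and 54.6 with siCDK6, 112.1, 77.3 and 136 with siNT3 and 93.5, 77.9 and 89.4 with siNT4 (-1.25 ± 0.22, limma adjusted p = 0.0015). Again no siCDK6 library reached a control. The centromeric histone gene CENPA (-1.20 ± 0.23) and the transcription factor gene MYBL2 (-1.18 ± 0.13) fell as well, while AURKA (-0.15 ± 0.08), CCNA2 (-0.42 ± 0.16), CDC25B, CENPM, KIF18A and KIF23 did not pass.

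Promoters of S phase and mitosis genes often held the short words known for these classes. Of the tested genes, 9254 had a RefSeq promoter window (GRCh38.p14, 250 bases before to 50 after a start), and a gene was counted when any of its windows matched on either strand. The E2F words TTTCCCGC, TTTCGCGC, TTTGCCGC and TTTGGCGC were found in 20 of 36 S phase genes that fell (55.6%), against 6.69% of tested genes and 3.99% of all 27305 genes with a window. They were in 8.7% of all genes that fell and 5.66% of those that rose. The cell cycle homology region TTTGAA was in 26 of 37 G2 and mitosis genes that fell (70.3%), against 14.3% and 18.2%, and in 16.2% of all genes that fell and 16.3% of those that rose. The shares over all tested members, whatever their call, were 25 of 44 (56.8%) for S phase and 28 of 41 (68.3%) for G2 and mitosis, and the difference between members that fell and the rest was not tested. The following stretches each show 1 match, with the motif in capitals and 5′ to 3′ on the strand of the gene. They lie at chr16:88803714-88803788 on the plus strand for CDT1, chr4:17810904-17810978 on the plus strand for NCAPG and chr1:43358876-43358961 on the plus strand for CDC20. CDC20 activates the anaphase-promoting complex.
CDT1: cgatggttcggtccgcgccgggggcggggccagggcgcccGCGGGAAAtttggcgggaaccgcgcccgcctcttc
NCAPG: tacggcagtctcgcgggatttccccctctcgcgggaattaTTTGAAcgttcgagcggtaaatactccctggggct
CDC20: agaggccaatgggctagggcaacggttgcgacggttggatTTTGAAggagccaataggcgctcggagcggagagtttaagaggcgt
In CDT1 the capitals are the reverse complement of TTTCCCGC and end 28 bases before the start. In NCAPG and CDC20 the region begins 35 and 65 bases before it. A match is a description of the letters and not a binding site measured here.

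Genes of the nuclear lamina and of HMG chromatin proteins fell in part. LMNB1, which encodes lamin B1 and is known to decline in senescence, had 65.1, 54.04 and 75.7 with siCDK6 against 172, 138 and 217 with siNT3 and 126, 171 and 141 with siNT4 (log2 difference -1.29 ± 0.17, limma adjusted p = 0.00023). HMGA2, an architectural chromatin protein, was at 5264, 5057 and 5209.7 with siCDK6, 10873, 11354 and 10079.8 with siNT3 and 8535, 8711 and 9453 with siNT4 (-0.92 ± 0.06, limma adjusted p = 4.4e-06). Proliferating cells had 5740.2, 5715 and 5731, so the irradiated controls lay above them and the siCDK6 libraries a little below. HMGB2 fell by 0.87 ± 0.17 and the lamina-associated TMPO by 0.56 ± 0.10 on the log2 scale. In all, 6 of 12 tested lamina and HMG genes fell and 0 rose (median -0.24, and of rises 1 without siNT3 replicate 3). HMGA1 passed the threshold downwards by 0.22 ± 0.07, but not without any one of the siCDK6 or siNT4 libraries, and its difference from siNT3 alone was 0.08.

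Targets of p53 moved less as a class. Of 34 tested, 18 fell (11 without siCDK6 replicate 1 or 3) and 3 rose, with a median of -0.23. The stress cytokine gene GDF15 had 1611, 2049.9 and 1595 with siCDK6 against 5293, 5624 and 7139 with siNT3 and 5056, 6414 and 5253 with siNT4 (log2 difference -1.72 ± 0.12, limma adjusted p = 4.5e-06), the largest fall of the list. MDM2, which ubiquitinates p53, fell by 0.59 ± 0.06, the nuclease gene AEN by 0.59 ± 0.06 and the kinase gene PLK2 by 0.61 ± 0.07. ZMAT3, an RNA-binding target of p53, went the other way at 4987, 5606 and 5400.4 with siCDK6, 3665, 4127 and 2675 with siNT3 and 3586, 3663 and 3627 with siNT4 (0.59 ± 0.11, limma adjusted p = 0.0024).

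The RNA of secreted inflammatory proteins fell steeply. Of 15 tested chemokines 13 fell, with a list median of -1.998. CXCL8, the neutrophil attractant interleukin 8, had 323, 667 and 238 with siCDK6 against 5131, 5495 and 6662 with siNT3 and 1601, 2583 and 1639.9 with siNT4 (log2 difference -3.15 ± 0.27, limma adjusted p = 2e-05). CXCL1 had 52.9, 101.6 and 24.9 with siCDK6, 1081, 1007 and 1763 with siNT3 and 185, 333 and 165 with siNT4 (-3.31 ± 0.37, limma adjusted p = 9.6e-05). CXCL5 had 18.3, 54.98 and 20.1 with siCDK6 against 495, 559.7 and 516 with siNT3 and 101.3, 172 and 117 with siNT4 (-3.19 ± 0.30, limma adjusted p = 3.2e-05). In each of these the siCDK6 libraries lay below both controls, but the controls themselves differed: for CXCL8 the log2 difference siNT4 minus siNT3 was -1.60 ± 0.31 (limma adjusted p = 0.0063). Against siNT4 alone the difference of siCDK6 in CXCL8 was -2.35 ± 0.31 (limma adjusted p = 0.00051). CXCL2 (-3.28 ± 0.36), CXCL3 (-3.02 ± 0.24) and CCL20 (-3.56 ± 0.48) also fell. CXCL1, CXCL2 and CXCL3 are nearly identical copies, so reads may have been split between them. CXCL12 (-0.34 ± 0.13), a homeostatic chemokine, did not pass. CXCL14 passed upwards with values of only 28.5, 13.98 and 14.4 with siCDK6, 8.30, 9.93 and 4.85 with siNT3 and 12.2, 6.81 and 8.66 with siNT4, and no longer did in 6 of the 9 fits that left out 1 library.

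The NF-kB motif was searched as GGGRNNYYCC on both strands, where R is A or G, Y is C or T and N is any base. It was in the promoter windows of 8 of 10 chemokine genes that fell and had a window (80%), against 17.5% of tested genes and 13.3% of all genes. In the NF-kB list it was in 9 of 15 genes that fell (60%) and in 13 of 26 tested members with a window (50%). Among interleukins, growth factors and related SASP ligands 4 of 20 that fell held it (20%). Over all tested members of that list with a window the share was 8 of 31 (25.8%). Stretches of CXCL1, at chr4:73869275-73869364 on the plus strand, and CCL20, at chr2:227813723-227813812 on the plus strand, are shown with the motif in capitals.
CXCL1: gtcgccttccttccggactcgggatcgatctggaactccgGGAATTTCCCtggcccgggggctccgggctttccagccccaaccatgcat
CCL20: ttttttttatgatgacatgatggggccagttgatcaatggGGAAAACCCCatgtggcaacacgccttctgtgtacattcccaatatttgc
Both matches in capitals lie between 69 and 79 bases before the start. The CXCL1 window holds the motif at 2 positions upstream of the start. These 2 positions overlap, on opposite strands, and are not separate sites. Of all 1448 genes that fell and had a window 17.6% held the motif, and of 1484 that rose 19.7%. Of all tested chemokines with a window, whatever their call, 8 of 12 held it (66.7%).

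Interleukin and growth factor genes of the secretory phenotype fell with the chemokine genes. Of 43 tested, 29 fell and 3 rose (7 without siNT3 replicate 3), with a median of -0.71. The median was -0.80 against siNT3 and -0.48 against siNT4, and 24 genes fell against each control alone. Of the 43, 18 were themselves lower in siNT4 than in siNT3 and 1 was higher. IL1A, an upstream cytokine of the phenotype, had 19.3, 20.5 and 15.3 with siCDK6 against 222, 265 and 241 with siNT3 and 74.6, 140.1 and 129 with siNT4 (log2 difference -3.10 ± 0.20, limma adjusted p = 3e-06). IL1B had 28.5, 53.1 and 31.6 with siCDK6, 542, 638 and 774 with siNT3 and 177, 299 and 237 with siNT4 (-3.38 ± 0.21, limma adjusted p = 3e-06). IL6 had 268, 347 and 209.8 with siCDK6 against 1824, 1919 and 2993 with siNT3 and 408, 682 and 451 with siNT4 (-1.96 ± 0.21, limma adjusted p = 6.8e-05). For IL6 the siCDK6 libraries were closer to siNT4 than to siNT3, and the difference from siNT4 alone was -0.89 ± 0.24 (limma adjusted p = 0.022). The colony-stimulating factor genes CSF2 (2.04, 14.9 and 6.71 with siCDK6, 135, 152 and 294 with siNT3 and 34.5, 58.4 and 38.5 with siNT4) and CSF3 (1.02, 2.80 and 0 with siCDK6 against 59.2, 95.1 and 91.02 with siNT3 and 11.1, 35.03 and 9.62 with siNT4) fell, with siCDK6 values of few reads. SERPINB2, a plasminogen activator inhibitor, had 279, 388 and 281 with siCDK6, 1503, 1746 and 1618 with siNT3 and 1011, 1194 and 1115 with siNT4 (-2.10 ± 0.11, limma adjusted p = 9.8e-07). The 3 that rose were a pair of insulin-like growth factor binding protein genes and the growth factor gene HGF. IGFBP5 had 186112, 180227 and 178891 with siCDK6 against 92711, 81621 and 61938 with siNT3 and 95898, 103044 and 98050.5 with siNT4 (1.05 ± 0.11, limma adjusted p = 7.2e-05), with all siCDK6 libraries above all controls, and IGFBP7 rose by 0.33 ± 0.08. HGF passed upwards by 0.31 ± 0.06, but its difference from siNT4 alone was 0.01 ± 0.07 (limma adjusted p = 0.93).

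Genes that NF-kB induces to limit its own activity were lower, with those of the AP-1 family. In the NF-kB list 18 of 30 fell and 0 rose (median -0.46), and in the AP-1 and ATF list 11 of 19 fell and 0 rose (median -0.42). TNFAIP3, the A20 ubiquitin-editing enzyme, had 198, 289.8 and 172 with siCDK6, 1219.8, 1489 and 996 with siNT3 and 709, 949.8 and 682 with siNT4 (log2 difference -2.17 ± 0.18, limma adjusted p = 1.3e-05). The inhibitor gene NFKBIA had 707, 1091 and 611 with siCDK6 against 1798, 1827 and 2409 with siNT3 and 1321, 1625 and 1180.1 with siNT4 (-1.08 ± 0.17, limma adjusted p = 0.00087). BIRC3 fell by 1.76 ± 0.12, the subunit gene RELB by 1.09 ± 0.11, TNFAIP2 by 1.02 ± 0.11 and NFKBIE by 0.98 ± 0.13 on the log2 scale. ATF3, a stress-induced factor of the AP-1 family, had 425, 486 and 345 with siCDK6, 1269.6, 1189.7 and 1334 with siNT3 and 804, 1049 and 906 with siNT4 (-1.37 ± 0.11, limma adjusted p = 1.5e-05). CEBPB (-1.06 ± 0.13), FOS (-0.98 ± 0.18), JUNB (-0.76 ± 0.16) and FOSL1 (-0.76 ± 0.08) fell too. In TNFAIP3, NFKBIA and ATF3 no siCDK6 library overlapped the controls.

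Matrix protease genes did not move as a group. Of 16 metalloproteinases and inhibitors 4 fell and 4 rose (2 without siCDK6 replicate 1, 2 or 3), median 0.06. MMP1, the interstitial collagenase, had 3049, 3921 and 3109 with siCDK6 against 6595, 7543 and 7986 with siNT3 and 5856, 6485 and 6567 with siNT4 (log2 difference -1.03 ± 0.09, limma adjusted p = 2.8e-05), and the stromelysin gene MMP3 had 237, 402 and 263 with siCDK6, 581, 814 and 820.4 with siNT3 and 569.8, 529 and 561 with siNT4 (-1.11 ± 0.16, limma adjusted p = 0.00045). The inhibitor gene TIMP2 rose by 0.52 ± 0.06 and RECK, a membrane-anchored inhibitor, by 0.70 ± 0.10.

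Interferon-stimulated genes fell broadly. Of 47 tested 38 fell and 2 rose (median -0.93). IFI6, a mitochondrial protein, had 1713, 2941 and 2161 with siCDK6 against 10766, 10359 and 15636 with siNT3 and 6370.3, 8872 and 6498 with siNT4 (log2 difference -2.07 ± 0.18, limma adjusted p = 2.3e-05). RSAD2, the antiviral enzyme viperin, had 38.7, 49.4 and 38.3 with siCDK6, 366, 304 and 399 with siNT3 and 135, 238 and 179 with siNT4 (-2.56 ± 0.17, limma adjusted p = 4.4e-06). IFI44L had 54.96, 143 and 162 with siCDK6 against 608, 483 and 695 with siNT3 and 436, 487 and 533 with siNT4 (-2.29 ± 0.28, limma adjusted p = 0.00016). No siCDK6 library reached a control in these genes. OAS2 (-2.09 ± 0.27) and OASL (-2.08 ± 0.22) of the oligoadenylate synthetase family and the nucleotide kinase gene CMPK2 (-2.21 ± 0.26) fell as far. The guanylate-binding protein gene GBP1 rose instead, at 1421, 1598 and 1378 with siCDK6, 1278, 1035 and 879.8 with siNT3 and 946, 1047 and 1067 with siNT4 (0.50 ± 0.11, limma adjusted p = 0.0048). TRIM22 passed upwards by 0.25 ± 0.06 against both controls but not against siNT4 alone.

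**Figure D3:**
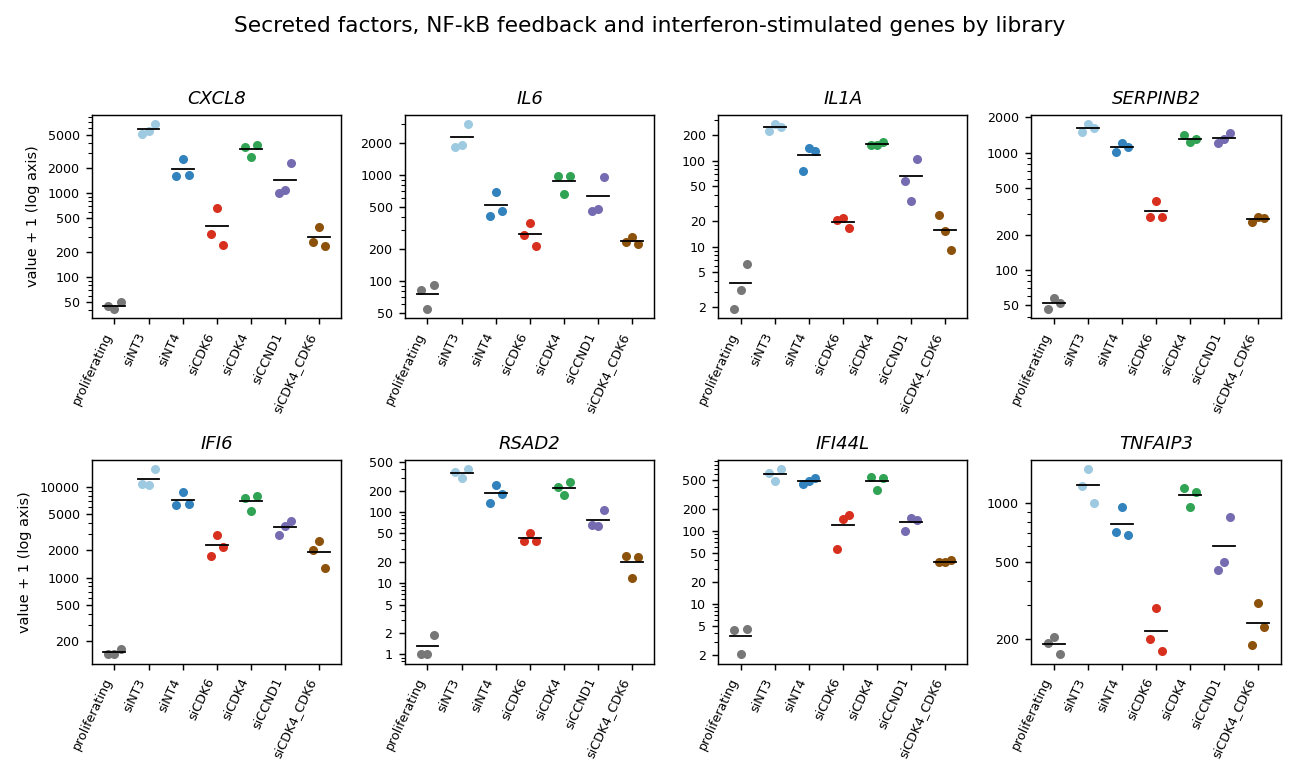
Values plus 1 (reads divided by the size factor, log axis) of 8 secreted, NF-kB feedback and interferon-stimulated genes in all 7 groups, with 1 point per library and a bar at the group mean. The siCDK6 libraries lay below both controls for CXCL8 (323, 667 and 238) and IFI6, and the proliferating libraries lower still.

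The core of the interferon-stimulated response element (ISRE), searched by name on both strands, was in the promoter windows of 23 of 32 interferon-stimulated genes that fell (71.9%), against 4.06% of tested genes, 6.22% of all genes that fell and 3.3% of those that rose. Windows of IFI44L, at chr1:78620244-78620333 on the plus strand, and IFI6, at chr1:27672236-27672325 on the minus strand, hold it as capitals show.
IFI44L: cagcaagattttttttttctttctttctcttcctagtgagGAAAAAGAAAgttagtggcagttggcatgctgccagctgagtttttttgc
IFI6: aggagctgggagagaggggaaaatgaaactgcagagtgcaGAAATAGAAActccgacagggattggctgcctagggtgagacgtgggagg
The match in capitals begins 164 bases before the start of IFI44L and 93 before that of IFI6. It is not the only one: the core occurs at 2 positions upstream of the start in the IFI44L window and at 3 in that of IFI6, where another lies in lower case in the printed stretch. Among all tested interferon-stimulated genes with a window 26 of 36 held it (72.2%). Matches of different motifs overlapped in at most 14 of 13818 windows of tested genes for any pair.

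The receptors and factors upstream of these genes had a median nearer 0 than the genes themselves. Of 23 tested receptor, JAK, STAT and IRF genes 8 fell (5 without siCDK6 replicate 1) and 2 rose (0 without siCDK6 replicate 2, 1 without siNT4 replicate 1 or siCDK6 replicate 1 or 3, 4 without siNT3 replicate 3), median -0.19. IRF9, an interferon-regulated transcription factor, fell by 0.46 ± 0.07, and the feedback inhibitor SOCS3 by 0.90 ± 0.18. IRF7 fell from 18.6 to 4.21 on average, a level of few reads. Of 17 nucleic acid sensors and nucleases 10 fell and 2 rose (median -0.39). IFIH1, the RNA sensor MDA5, had 137, 233 and 253 with siCDK6 against 569.9, 438 and 512 with siNT3 and 347, 448 and 486 with siNT4 (-1.20 ± 0.18, limma adjusted p = 0.00068), and DHX58, its relative LGP2, fell by 1.70 ± 0.31. SAMHD1 fell by 0.66 ± 0.13. CGAS, the DNA sensor, was at 55.98, 47.5 and 51.7 with siCDK6, 62.3, 63.8 and 80.1 with siNT3 and 101.3, 72.99 and 83.7 with siNT4. It passed downwards (-0.55 ± 0.15) but not without siCDK6 replicate 2 or 3, nor against siNT3 alone.

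In antigen presentation by MHC class I, 5 of 13 genes fell (3 without siCDK6 replicate 2 or 3, 8 without siNT3 replicate 3) and 1 rose (median -0.20). HLA-B had 1485, 1289 and 1207 with siCDK6 against 2526, 2196 and 3115 with siNT3 and 1834, 2033 and 1659 with siNT4 (log2 difference -0.72 ± 0.11, limma adjusted p = 0.00072). B2M, the light chain, passed downwards by 0.62 ± 0.11 against both controls but not against siNT4 alone. In the complement list 3 of 14 rose (1 without siCDK6 replicate 3, 5 without siNT3 replicate 3) and 2 fell (median 0.07), with values that went apart: C3 had 343, 836 and 262 with siCDK6, 2959.7, 3065 and 2313 with siNT3 and 1186, 1821 and 1255 with siNT4 (-2.21 ± 0.29, limma adjusted p = 0.00027), the regulator CD55 fell by 0.79 ± 0.08, and the lectin pathway protease gene MASP1 rose by 0.99 ± 0.13.

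The contractile genes of smooth muscle and myofibroblasts rose. Of 32 tested, 22 rose and 1 fell (median 0.61). LMOD1, an actin nucleator of smooth muscle, had 2736, 2917 and 2727 with siCDK6 against 745, 638 and 541 with siNT3 and 812, 877 and 887 with siNT4 (log2 difference 1.92 ± 0.09, limma adjusted p = 9.8e-07). Calponin 1, CNN1, had 2995, 3122 and 2778 with siCDK6, 1180.3, 1102 and 1254 with siNT3 and 1274, 1541 and 1213 with siNT4 (1.24 ± 0.08, limma adjusted p = 4.4e-06). ACTA2, smooth-muscle actin, had 6857, 6204 and 6494 with siCDK6 against 3190.1, 2782 and 3425 with siNT3 and 3440.01, 3273 and 3021 with siNT4 (1.03 ± 0.08, limma adjusted p = 7.2e-06). All siCDK6 libraries lay above all 6 controls in these genes. TAGLN (1.12 ± 0.09), ACTG2 (0.92 ± 0.11) and PPP1R12B (1.30 ± 0.14), a myosin phosphatase subunit, rose as well. SMTN, which encodes smoothelin, fell by 0.29 ± 0.07. The transcription factor gene SRF (-0.11 ± 0.07) and its coactivator gene MYOCD (0.12 ± 0.11) did not pass, nor did the muscle genes DES and RGS5.

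**Figure D4:**
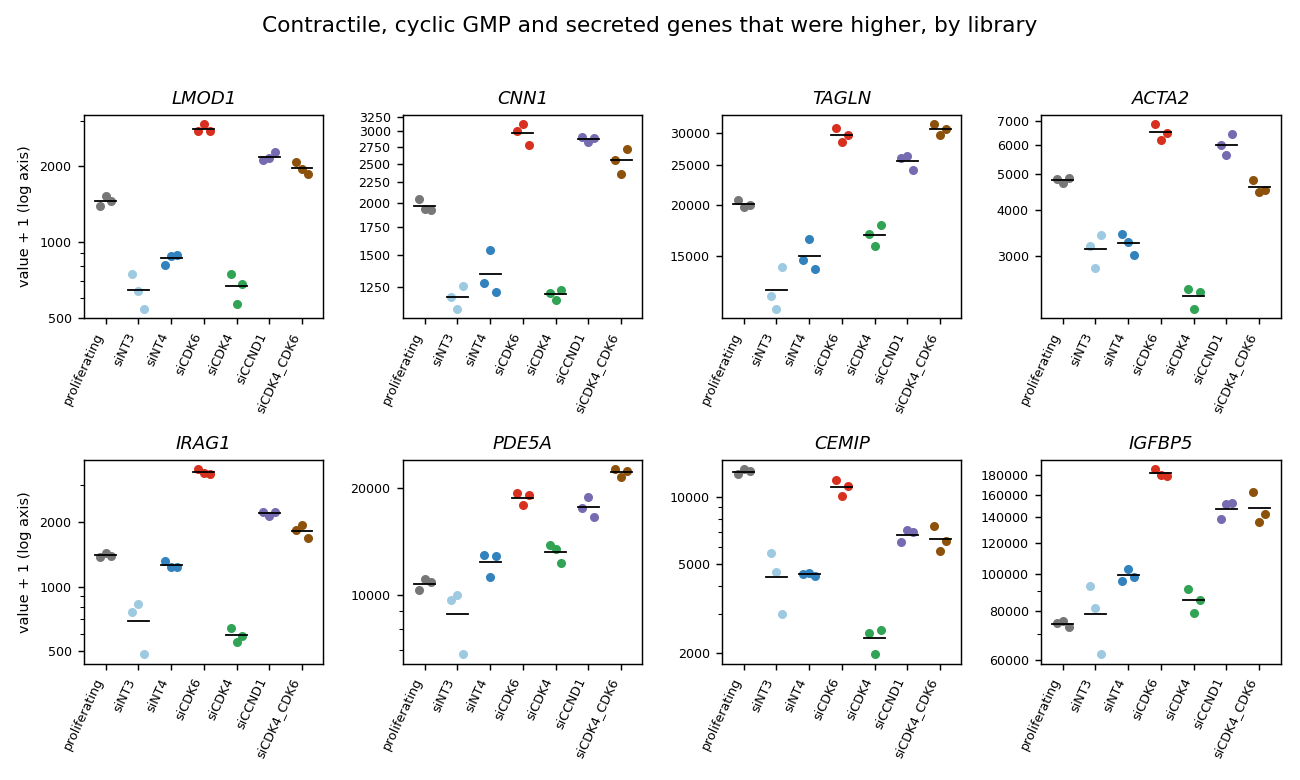
Values plus 1 (reads divided by the size factor, log axis) of 8 contractile, cyclic GMP and secreted genes in all 7 groups, with 1 point per library and a bar at the group mean. The siCDK6 libraries lay above both controls in all 8 genes.

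The CArG box, the element bound by SRF, was searched as CCWWWWWWGG, where W is A or T. It was in the windows of 7 of 20 contractile genes that rose and had a window (35%), against 1.67% of tested genes, 3.17% of all genes that rose and 1.31% of those that fell. Over all tested contractile genes with a window it was in 9 of 27 (33.3%). It is shown in capitals in CNN2 (calponin 2), at chr19:1026479-1026568 on the plus strand, and in LPP, a protein of focal adhesions, at chr3:188212489-188212578 on the plus strand.
CNN2: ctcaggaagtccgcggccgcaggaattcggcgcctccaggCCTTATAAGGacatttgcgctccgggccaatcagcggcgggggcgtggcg
LPP: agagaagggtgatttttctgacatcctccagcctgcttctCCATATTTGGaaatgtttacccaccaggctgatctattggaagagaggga
The match ends 80 bases before the start of CNN2 and 174 before that of LPP.

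Cyclic GMP signalling relaxes smooth muscle, and its genes rose in part. Of 17 tested 7 rose and 3 fell (1 without siCDK6 replicate 1 or 2), median 0.41. The median was 0.20 without siNT4 replicate 2 and 0.16 without siCDK6 replicate 2, and it was 0.62 against siNT3 and 0.10 against siNT4, with 4 genes that rose against each control alone. IRAG1, a substrate of the cyclic GMP-dependent kinase, had 3557, 3397 and 3363 with siCDK6, 759, 826 and 479 with siNT3 and 1313, 1236 and 1233 with siNT4 (log2 difference 1.90 ± 0.14, limma adjusted p = 6.5e-06). CORIN, the protease that activates natriuretic peptides, had 745, 600.1 and 696 with siCDK6 against 226, 148 and 177 with siNT3 and 219, 213 and 208 with siNT4 (1.78 ± 0.13, limma adjusted p = 4.9e-06). PDE5A, which hydrolyses cyclic GMP, had 19320.3, 17860.5 and 19146 with siCDK6, 9668, 10004 and 6787 with siNT3 and 12931, 11185 and 12849 with siNT4 (0.86 ± 0.11, limma adjusted p = 0.00026). The siCDK6 libraries were the highest of the 9 in each.

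Matrix genes rose more often than they fell against both controls together, but not all of this held against siNT4. In the list of elastic fibre proteins, proteoglycans and glycoproteins 17 of 35 rose and 4 fell (2 without siCDK6 replicate 2), median 0.40. The median was 0.41 against siNT3 and 0.20 against siNT4, 6 genes rose against each control alone, and 12 were themselves higher in siNT4 than in siNT3. The proteoglycan gene DCN, which encodes decorin, had 25739, 21154 and 24182 with siCDK6 against 16552, 12790.4 and 17732 with siNT3 and 14944, 14167 and 14145 with siNT4 (log2 difference 0.66 ± 0.10, limma adjusted p = 0.00073). BGN, biglycan, rose by 0.75 ± 0.09 and ELN, elastin, by 0.74 ± 0.16. POSTN, periostin, fell, with 1012, 898 and 916 with siCDK6, 1515, 1428 and 1426 with siNT3 and 2527, 2122 and 2583 with siNT4 (-0.99 ± 0.08, limma adjusted p = 1e-05). FN1, fibronectin, passed downwards (-0.59 ± 0.14) but not against siNT3 alone. Of 25 collagen chains 7 rose (2 without siCDK6 replicate 1, 3 without siCDK6 replicate 2 or 3, 4 without siNT4 replicate 2 or 3) and 3 fell (1 without siCDK6 replicate 3, 5 without siNT3 replicate 3), median 0.15 (0.08 without siNT3 replicate 3, 0.09 without siCDK6 replicate 2). None of the chains rose against each control alone (0 of 25), and the median was 0.29 against siNT3 and -0.05 against siNT4. COL5A3 fell by 1.03 ± 0.12.

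Genes for enzymes of hyaluronan, the large polysaccharide of the matrix, went in opposite directions. HAS2, a synthase, had 161, 142 and 166 with siCDK6 against 711, 679.6 and 728 with siNT3 and 388, 508 and 498 with siNT4 (log2 difference -1.87 ± 0.10, limma adjusted p = 9.8e-07). CEMIP, which degrades hyaluronan, had 11835, 10106 and 11224 with siCDK6, 5612, 4596 and 3009.6 with siNT3 and 4539.6, 4558 and 4453 with siNT4 (1.33 ± 0.15, limma adjusted p = 0.0001). TNFAIP6, which modifies it in inflammation, fell by 2.07 ± 0.24, and HMMR, a mitotic protein, by 0.69 ± 0.12. Over the list 3 of 10 fell and 1 rose (2 without siNT3 replicate 2 or 3) (median -0.06). In prostaglandin synthesis the inducible cyclooxygenase gene PTGS2 had 398, 450.1 and 341 with siCDK6 against 1977, 2262 and 1751 with siNT3 and 1008, 989.7 and 929 with siNT4 (-1.82 ± 0.10, limma adjusted p = 9.8e-07), while the constitutive PTGS1 had 4188, 4802 and 4013 with siCDK6, 2277, 2091 and 1954 with siNT3 and 3219, 3045 and 3166 with siNT4 (0.75 ± 0.07, limma adjusted p = 4.5e-05). That list counted 3 rises and 2 falls (4 without siNT3 replicate 3) among 14 genes, median -0.11.

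Other lists had medians near 0, with members that moved both ways. Of 21 YAP and TEAD targets 8 rose (3 without siCDK6 replicate 1, 2 or 3) and 5 fell, median 0.14. Against each control alone 1 still rose and 3 fell. CRIM1 rose by 0.69 ± 0.13 and NUAK2 fell by 0.86 ± 0.13. Of 36 TGF-beta and activin genes 13 rose (8 without siCDK6 replicate 2) and 5 fell (10 without siNT3 replicate 3), median 0.05, and 4 rose and 4 fell against each control alone. INHBA, the activin A subunit, had 861, 1078 and 819 with siCDK6 against 2799, 3584 and 3410.1 with siNT3 and 1397, 1731 and 1483 with siNT4 (log2 difference -1.29 ± 0.11, limma adjusted p = 2e-05), and its antagonist FST, follistatin, had 1392, 1406 and 1361 with siCDK6, 3790.2, 3498 and 5223 with siNT3 and 2047, 2159 and 1963 with siNT4 (-1.07 ± 0.11, limma adjusted p = 5.2e-05). Of 35 lysosomal genes 5 rose (11 without siNT3 replicate 3) and 5 fell (2 without siCDK6 replicate 3, 3 without siCDK6 replicate 1 or 2, 8 without siNT3 replicate 2, 10 without siNT3 replicate 3), median -0.05. CTSS, cathepsin S, had 50.9, 52.2 and 29.7 with siCDK6 against 234, 248 and 269 with siNT3 and 141, 171 and 139 with siNT4 (-2.15 ± 0.17, limma adjusted p = 1.3e-05).

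Metabolic and survival genes gave smaller medians below 0. Of 31 cholesterol and fatty acid genes 10 fell (6 without siCDK6 replicate 1, 17 without siNT3 replicate 3) and 0 rose, median -0.17, with INSIG1, the sterol sensor partner, at 303, 365 and 379 with siCDK6, 942, 1071 and 1127 with siNT3 and 629.9, 671 and 661 with siNT4 (log2 difference -1.25 ± 0.09, limma adjusted p = 5.5e-06). Of 27 ATF4 and amino acid response genes 12 fell and 1 rose (0 without siNT3 replicate 1 or 2 or siNT4 replicate 3 or siCDK6 replicate 1 or 2, 2 without siNT3 replicate 3), median -0.31. DDIT3, which encodes CHOP, fell by 1.07 ± 0.11, DDIT4 by 0.98 ± 0.21 and the transporter gene SLC3A2 by 0.97 ± 0.07 on the log2 scale. Of 16 BCL2 family genes 8 fell (5 without siCDK6 replicate 1 or 3) and 1 rose (0 without siNT3 replicate 1 or 2 or siNT4 replicate 1 or 2 or siCDK6 replicate 1, 2 or 3), median -0.27. MCL1 fell by 0.44 ± 0.06 and PMAIP1, a proapoptotic target of p53, by 0.68 ± 0.06. BCL2A1 was at 3.05, 2.80 and 0.958 with siCDK6 against 29.1, 31.9 and 54.6 with siNT3 and 8.90, 18.5 and 14.4 with siNT4 and fell.

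Outside these lists, 510 of the 11372 tested genes rose and 347 fell against the mean and each control alone. These had no overlap of libraries and a mean in the higher arm above the median gene. With list members and without the conditions on overlap and level, 754 rose and 923 fell. Among the 12 largest rises were ANO1, a calcium-activated chloride channel, at 1215, 1163 and 1135 with siCDK6, 334, 325 and 280.3 with siNT3 and 531, 483 and 436 with siNT4 (log2 difference 1.59 ± 0.09, limma adjusted p = 9.8e-07), and RELN, the matrix glycoprotein reelin, at 3133, 2666 and 3071 with siCDK6 against 918, 902 and 519 with siNT3 and 1346, 1336 and 1325 with siNT4 (1.55 ± 0.15, limma adjusted p = 4.9e-05). VSIR (1.58 ± 0.11), GALNT15 (1.57 ± 0.10), LRRC2 (1.53 ± 0.10), PITPNM3 (1.51 ± 0.15), SLC14A1 (1.50 ± 0.12), SGCD (1.37 ± 0.16), CHL1 (1.34 ± 0.14), SYT11 (1.33 ± 0.06), CD4 (1.28 ± 0.06) and SULF1 (1.27 ± 0.10) completed them. SGCD is a sarcoglycan of muscle, and SULF1 removes sulfate from heparan sulfate. Among the 12 largest falls were GEM, a small GTPase, at 98.7, 130.4 and 141 with siCDK6, 533, 499 and 566 with siNT3 and 443, 447 and 446 with siNT4 (-1.99 ± 0.11, limma adjusted p = 9.8e-07), and FZD8, a Wnt receptor, at 175, 196 and 185 with siCDK6 against 769, 766 and 780.3 with siNT3 and 522, 668 and 551 with siNT4 (-1.85 ± 0.09, limma adjusted p = 9.8e-07). RRAD (-1.59 ± 0.14), a relative of GEM, PPIF (-1.55 ± 0.08), SLC6A15 (-1.52 ± 0.11), CLDN12 (-1.51 ± 0.09), CYP1B1 (-1.51 ± 0.13), NR1D1 (-1.36 ± 0.07), POU2F2 (-1.33 ± 0.13), RTL8A (-1.33 ± 0.12), PEG10 (-1.21 ± 0.07) and UPP1 (-1.19 ± 0.08) were the others.

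The controls differed from each other, and the size of several results depends on which one is used. Between siNT4 and siNT3, 1786 genes passed (15.7%), with 2701 without siNT3 replicate 3 and 869, 1153 and 931 without siNT4 replicate 1, 2 and 3. Against siNT3 alone siCDK6 changed 4121 genes (36.2%) and against siNT4 alone 2411 (21.2%). The latter count was 4554 without siNT3 replicate 3, which enters that fit through the shared variance, and 1432 to 1567 without siCDK6 replicate 1 or 3 or any siNT4 library. Of 15 tested chemokines 9 were lower and 1 was higher in siNT4 than in siNT3. The chemokine median was -2.44 against siNT3 and -1.56 against siNT4, and that of interferon-stimulated genes was -1.03 and -0.83. For G2 and mitosis genes the values were -0.83 and -0.72, and for contractile genes 0.60 and 0.48. Nearer 0 against siNT4 were also the medians of AP-1 genes (-0.61 against siNT3 and -0.27 against siNT4), cholesterol genes (-0.27 and -0.05) and ATF4 genes (-0.39 and -0.20). Medians near 0 changed sign between the controls for metalloproteinases (0.26 and -0.08), complement (-0.03 and 0.10), hyaluronan (-0.19 and 0.02), collagen and TGF-beta genes. Against both controls taken singly and together, 9 of 15 chemokines, 31 of 47 interferon-stimulated genes and 38 of 49 G2 and mitosis genes fell, and 17 of 32 contractile genes rose, beside 8.12% of all tested genes falling and 6.63% rising.

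The direct comparison of siCDK6 with siCDK4, asked how the kinases differ in these cells. No control library enters the difference itself, though the 6 controls share in the variance estimate of the fit. In that fit of 18 irradiated libraries 3844 genes differed (33.8%), 1942 higher (17.1%) and 1902 lower (16.7%) with siCDK6. G2 and mitosis genes were lower with siCDK6 in 47 of 49 cases (median -1.17), S phase genes in 42 of 50 (-0.75), interferon-stimulated genes in 36 of 47 (-0.90) and chemokines in 12 of 15 (-1.49). Contractile genes were higher in 25 of 32 (0.50). CXCL8 had 3506, 2721 and 3744 in the siCDK4 libraries, and the difference was -3.15 ± 0.32 (limma adjusted p = 4.3e-07). LMOD1 had 748, 569 and 680.2, and the difference was 2.08 ± 0.10 (limma adjusted p = 3.3e-11). CDK2 had 513, 497 and 502 in the siCDK4 libraries, with a difference of -0.06 ± 0.08 (limma adjusted p = 0.63).

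Against knockdown of the shared cyclin fewer genes differed, 1252 (11.0%), of which 551 were higher (4.85%) and 701 lower (6.16%) with siCDK6. Without the third siCCND1 library the total was 834, and without siCDK6 replicate 1 or 3 it was 822 or 778. Secreted factors and NF-kB genes were lower with siCDK6. SASP ligands were lower with siCDK6 than with siCCND1 in 21 of 43 (median -0.40; 14 to 20 with 1 of the 6 libraries left out), NF-kB genes in 12 of 30 (7 to 13), and chemokines in 9 of 15 (3 to 7). Interferon-stimulated genes differed in 2 downwards (1 to 6) and 1 upwards (0 to 2) of 47, and G2 and mitosis genes were lower in 4 of 49 (1 to 3), beside the 6.16% and 4.85% of all genes. S phase genes were lower in 10 of 50 (median -0.21; 3 to 9 with 1 library left out), and genes of the D cyclin, CDK and RB axis in 8 of 26 (6 to 7), with 3 higher (1 to 2). CXCL8 had 1003, 1085 and 2268 with siCCND1 and a difference of -1.86 ± 0.32 (limma adjusted p = 0.00071). SERPINB2 had 1195, 1298 and 1466, and its difference was -2.07 ± 0.11 (limma adjusted p = 6.5e-10). CDKN2B had 291, 258 and 294, with a difference of -0.89 ± 0.10 (limma adjusted p = 5.1e-06). The levels of CCND1 and CDK6 RNA cannot be compared this way, since siCCND1 and siCDK6 target them. Both genes belong to the list of the D cyclin, CDK and RB axis counted above.

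Against the dual knockdown, which shares the loss of CDK6, 1313 genes differed (11.5%), 732 higher (6.44%) and 581 lower (5.11%) with siCDK6. Genes of G2 and mitosis were higher with siCDK6 than in the dual knockdown in 47 of 49 cases, with a median of 1.28. Without siCDK6 replicate 3 the total was 847 and without the third dual library 867. S phase genes were higher in 19 of 50 (median 0.33) and interferon-stimulated genes in 24 of 47 (median 0.47; 11 to 26 with 1 library left out). Chemokines were higher in 3 of 15 (1 to 4), and SASP ligands were higher in 4 (2 to 5) and lower in 6 (4 to 7) of 43. NCAPG had 41.9, 42.6 and 31.03 in the dual knockdown, and the difference was 1.46 ± 0.18 (limma adjusted p = 1.8e-05). CXCL8 had 263, 389.8 and 234 and a difference of 0.36 ± 0.32 (limma adjusted p = 0.52), within the spread of the libraries. By more than 1 log2 unit, 143 genes were higher with siCDK6 (1.26% of those tested) and 5 were lower (0.0440%), namely ANGPTL4, ANKRD1, CYP1B1, MEST and PKIB. The filter used only the siCDK6, siNT3 and siNT4 libraries. A gene low in those but not in the dual knockdown was therefore not tested and could not count as lower. CDK4, itself targeted in the dual knockdown, had 123, 115 and 115 there against 1015, 946 and 889 with siCDK6. CYP1B1, a cytochrome P450, had 705, 774 and 694 with siCDK6, 3503, 4783 and 2908 with siNT3 and 1069.5, 1205 and 1205 with siNT4, and its difference from the dual knockdown was -1.15 ± 0.13 (limma adjusted p = 7.2e-06). ANGPTL4, which inhibits lipoprotein lipase, had 250.4, 293 and 289 with siCDK6 against 937, 848 and 1190.5 with siNT3 and 479, 658 and 555 with siNT4, and its difference was -1.13 ± 0.12 (limma adjusted p = 2.7e-06).

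**Figure D5:**
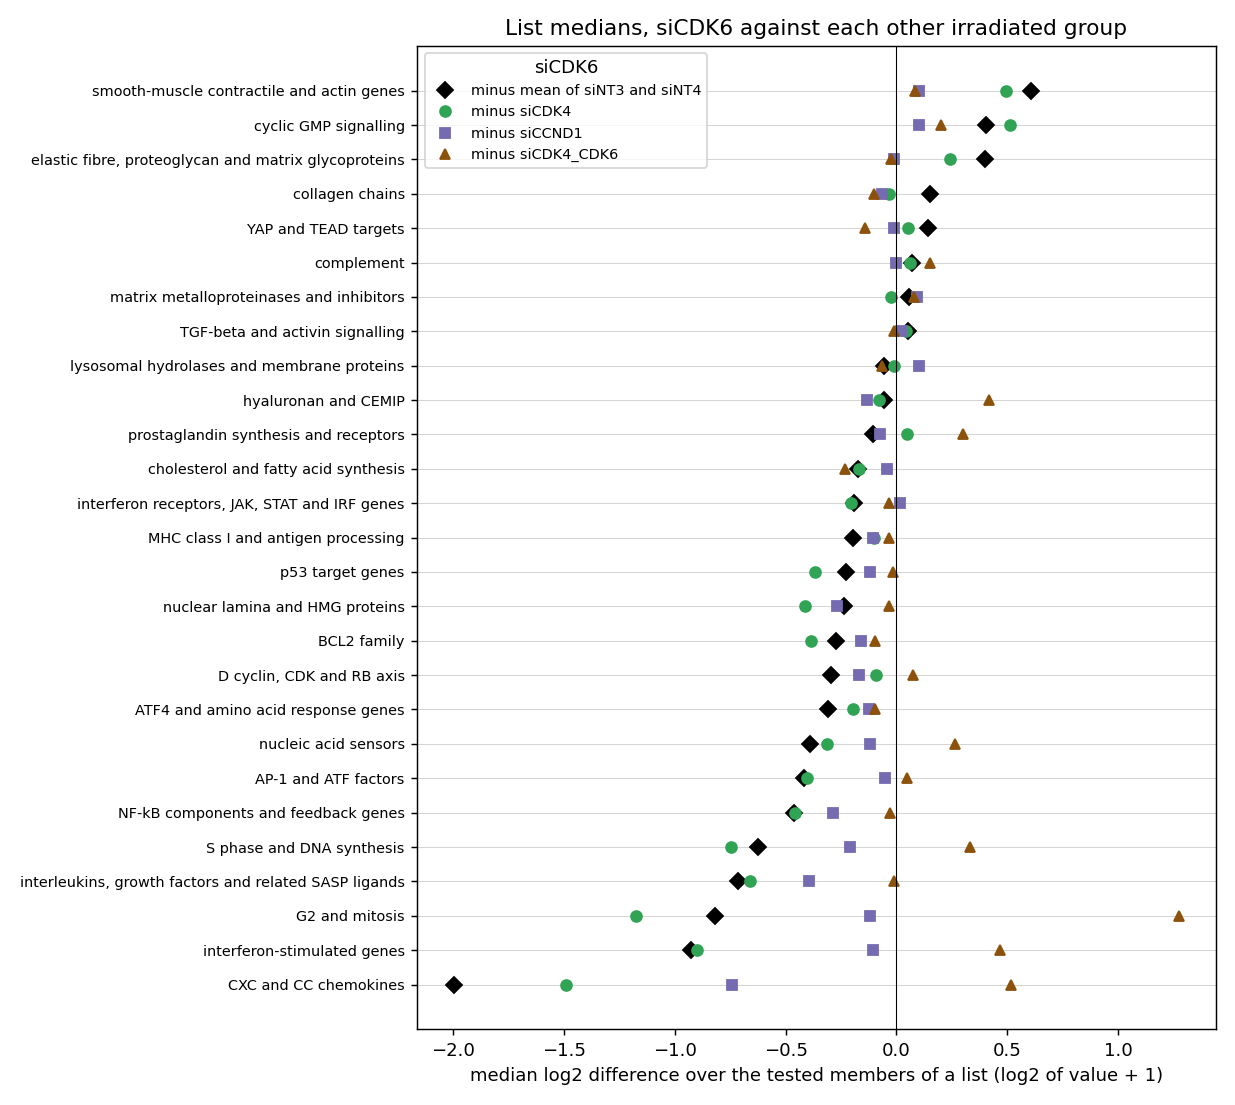
Median log2 difference of each gene list (horizontal axis) for siCDK6 minus the mean of both controls, minus siCDK4, minus siCCND1 and minus siCDK4_CDK6, with 1 symbol per list and comparison and no error drawn. G2 and mitosis genes were below siCDK4 (-1.17) and above the dual knockdown (1.28), and the chemokine median was -0.74 against siCCND1.

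Set against proliferating cells, which differ in irradiation and transfection as well, 7600 of 11372 genes differed (66.8%), 3751 higher (33.0%) and 3849 lower (33.8%) with siCDK6. Genes expressed in proliferating cells but low in the siCDK6, siNT3 and siNT4 libraries did not pass the filter and are not counted. After centring each library on its median gene the share of calls that were higher was 60.0% in place of 49.4%, and the median over all genes shifted by 0.12 on the log2 scale. Chemokines were higher than in proliferating cells in 14 of 15 cases and interferon-stimulated genes in 39 of 47. CXCL8 had 44.5, 40.4 and 48.7 in proliferating cells and IFI6 142, 144 and 163. All 49 G2 and mitosis genes and all 50 S phase genes were lower with siCDK6 than in proliferating cells, with medians of -3.64 and -2.87. CNN1 had 2045, 1931 and 1927 and a difference of 0.59 ± 0.08 (limma adjusted p = 5.9e-07), while CEMIP had 12639.5, 13273 and 12969 and a difference of -0.23 ± 0.15 (limma adjusted p = 0.16).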

How the data were processed

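Poly(A) RNA of 21 IMR90 libraries was sequenced, in 7 groups of 3. Per the submitters' processing notes the tools included Trimmomatic 0.38.1, HISAT2 2.2.1, featureCounts 2.0.3 and DESeq2 2.11.40.8, on GRCh38. The deposited signal equals reads over a library's size factor, as made by the authors, and gave back whole reads for 100% of values within 0.1 reads. The table lists 16383 genes, 19 without a symbol. Groups follow the titles, since the series text numbers the control siRNAs differently. Columns name the group and a library number but no replicate, so replicate numbers here follow column order.

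Tested genes had values of 10 or more in 3 or more of the 9 siCDK6, siNT3 and siNT4 libraries, also in comparisons with other groups. Genes low in these 9 but not in another group were therefore left out. Fits of log2(value + 1) used limma 3.58.1 under R 4.3.3 (trended variance, 1 mean per group, two-sided, Benjamini-Hochberg). Direct comparisons used the 18 irradiated libraries, and that with proliferating cells all 21. CDK6 was also tested by exact permutation. Alternatives were pseudocounts of 0.1 and 10, no filter or a mean of 100, median centring, quantile normalization, other fits, single controls, libraries left out, edgeR 4.0.16 and DESeq2 1.42.0 on whole reads.

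Members and the 27 lists were chosen with earlier results of these data known. The lists hold 770 memberships in the table, of which 707 were tested. A member that is low in all but 1 group can pass the filter only through that group. Named genes were the whole D cyclin, CDK and RB list, up to 6 called members per other list with the largest absolute difference, called members against the trend of their list, and outside the lists the 12 largest rises and falls called against both controls and each alone, with no overlap of libraries and above the median gene mean of 477.4. Not all are described singly. Transcript lengths were available for 99.4% of tested genes. Promoter windows, matched by Entrez ID, are from RefSeq (GRCh38.p14).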

Additional observations from a re-analysis of the deposited data

How the results depend on the processing

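The column headers carry library numbers that form 3 runs of 6, each with 1 library of every irradiated group. The labels do not say what these numbers mark. Deviations from the group mean of the 9 libraries correlated between same-run libraries of different groups at -0.14 to 0.13. Of these 9 pairs 2 were above 0.1, and 4 of 9 libraries correlated best with their own run. Among the 18 irradiated libraries 4 of 45 pairs were above 0.1, but 14 of 18 libraries correlated best with their own run. The main fits held no term for the run, and whether the runs pair the libraries was not settled. A replicate block by run, added after the data were seen, gave 3295 genes past the threshold against both controls, 3751 against siNT3, 2060 against siNT4, 1425 between the controls, 3894 against siCDK4, 1277 against siCCND1 and 1331 against siCDK4_CDK6, and among named genes BOK alone (0.24) lost its call. Leaving out 1 library at a time moved the number of genes past the threshold to 2307 to 5312 against both controls (siNT4 alone 2411), 2851 to 4992 against siNT3, 1432 to 4554 against siNT4 and 869 to 2701 between the controls, which the fits of 18 and 21 libraries put at 2958 and 3222. It gave 778 to 950 against siCCND1 and 847 to 1063 against siCDK4_CDK6, where a fit of the compared groups only gave 2434 and 2458. The CDK6 difference was -2.70 with siNT3 alone and -2.49 with siNT4 alone, with p = 0.1 by exact permutation in each, the lowest value possible with 3 libraries a side. Signs turned for 4 named genes past the threshold: HMGA1 was 0.076 with siNT3 alone, and CANX -0.19, ANKRD1 0.48 and SMAD6 -0.11 with siNT4 alone. The cause was not tested. Some named genes not past it also crossed 0, such as RBL1, which ranged from -0.42 to 0.16. RBL2 passed the threshold in 4 of 22 alternatives and TFDP1 in 1. Of 210 named genes past the threshold, 153 kept direction and call in every alternative and 57 lost the call in at least 1. On whole reads edgeR called 3641 genes and DESeq2 3925 against both controls. Leaving out siNT3 replicate 3 kept all 210 calls and their directions, beside 3616 of the 3618 calls over all genes. Genes of fewer than 10 reads in a library carry large counting error.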

Other observations

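Some of the largest differences lay outside the gene lists and in genes below the median level, and they are named here after their values were seen. EHF, an epithelial transcription factor of the ETS family, had 19.3, 16.8 and 14.4 with siCDK6 against 345, 487 and 314 with siNT3 and 105.7, 182 and 163 with siNT4 (log2 difference -3.73 ± 0.20, limma adjusted p = 9.8e-07). Every siCDK6 library lay far below every control. The group mean of EHF was 192 with siCDK4, 221 with siCCND1 and 19.8 in the dual knockdown, and the difference of siCDK6 from siCCND1 was -3.56 ± 0.38 (limma adjusted p = 5e-06). SAA1, an acute phase protein, had 0, 0.932 and 1.92 with siCDK6, 15.6, 29.1 and 33.98 with siNT3 and 18.9, 5.84 and 5.77 with siNT4 (-3.16 ± 0.51, limma adjusted p = 0.00094).

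Among genes that rose, FGL2, a secreted protein of the fibrinogen family, had 236, 266 and 313 with siCDK6 against 56.1, 53.2 and 54.6 with siNT3 and 69.00, 72.99 and 72.1 with siNT4 (log2 difference 2.09 ± 0.12, limma adjusted p = 9.8e-07), and GCNT4, a glycosyltransferase, had 232, 237 and 233 with siCDK6, 59.2, 70.2 and 60.7 with siNT3 and 54.5, 49.6 and 52.9 with siNT4 (2.01 ± 0.11, limma adjusted p = 9.8e-07). Both were above all 6 controls in every siCDK6 library. FGL2 had a mean of 40.2 with siCDK4, 87.6 with siCCND1 and 54.9 in the dual knockdown, against 96.7 in proliferating cells. GCNT4 had 49.3, 119 and 177 in the same order, and 124 in proliferating cells.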
